A study of Mus musculus with 10 samples.

Results

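The collagens, laminin chains and fibroblast-type matrix genes of cultured microglia were described here. They were chosen by symbol alone: every gene of the count tables named as a collagen chain (Col followed by its chain number) or a laminin chain (Lama, Lamb or Lamc), together with Fn1, Lum, Dcn, Bgn, Fbn1, Fbln1, Fbln2, Fbln5, Postn and Vcan. The rule found 65 of 24411 genes, of which 63 had at least 1 read in some library. By what the proteins build, they comprised 11 fibrillar collagens, 6 collagen IV chains, 12 other network, beaded filament and anchoring collagens, 9 fibril-associated collagens, 6 multiplexin and transmembrane collagens, 11 laminin chains, 6 glycoproteins and 4 proteoglycans.

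The extracellular matrix is the protein scaffold that cells secrete around themselves. Fibrillar collagens form the ropes of connective tissue, while collagen IV and the laminins, each assembled from 3 chains, form the basement membrane sheets on which vessels, meninges and glial endfeet rest. Fibronectin joins this scaffold to the integrins of the cell surface. In brain, matrix of this kind is made largely by fibroblasts, vascular cells and astrocytes, and less by microglia, the resident macrophages.

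The study asked whether blocking EZH2, the enzyme that methylates histone H3 at lysine 27, limits microglial activation. Libraries came from 4 groups, all of which had received the EZH2 inhibitor EPZ-6438 at 10 uM: primary microglia without LPS (n = 3) and with LPS (n = 3), and cells of the mouse microglial line BV2 without LPS (n = 2) and with LPS (n = 2). LPS, the endotoxin of bacteria to which microglia respond with inflammation, was given at 10 ng/ml, and the labels give 4 h for the treatment. Primary microglia were shaken off mixed glial cultures of 2 weeks, grown from the pooled brains of 12 ICR mice aged 3 days after the meninges and vessels had been taken off, and over 92% of the cells carried CD11b per the labels' protocols. BV2 is 1 immortalised line, so its libraries are not separate animals. No library without EPZ-6438 was analysed here, so that every difference below is one of LPS or of cell source in cells that had all received the inhibitor. Whether the libraries of a group are separate cultures is not stated in the labels. The p-values therefore reflect just the variation among these libraries, possibly all of it technical.

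Sense-strand reads on genes came to 2750988 to 3684012 per library, and the matrix genes took 2683 to 4265 of them in primary libraries and 216 to 246 in BV2 libraries. Levels are given as CPM, counts scaled to a common library size by the TMM method, with the SD over libraries, and levels of different genes are compared only per kilobase of transcript. At these sizes a count of 0 allows up to 0.843 to 1.00 CPM in a BV2 library, for counting error only. The ribosomal precursor Rn45s held 40.9% to 51.7% of gene counts in primary libraries without LPS, 43.7% in LPS library 1, and 15.7% and 16.0% in LPS libraries 2 and 3. Deviations from the group means were correlated between no-LPS and LPS libraries over 11626 filtered genes, and the primary libraries were put in 2 sets. No-LPS libraries 1 and 2 and LPS library 1 made up the first, and no-LPS library 3 and LPS libraries 2 and 3 the second. The correlations were low, at 0.14 to 0.21 within sets and -0.32 to -0.09 between them. Deviations within a group sum to 0, so that correlations of both signs were bound to appear. Within-set values are given below where they bear on a result, as differences with no test, since each set has 1 library in 1 arm and the sets were drawn from these data. A fit without LPS library 1 holds only LPS libraries of the second set, but no-LPS libraries of both sets. LPS and set are then partly confounded, which limits every value given below without LPS library 1. LPS acted in both cell sources: Il1b, a cytokine gene that LPS induces, went from 2.66 ± 0.82 to 4629 ± 316 CPM in primary cells (SD, n = 3) and from 2.71 ± 0.57 to 630.1 ± 41.6 CPM in BV2 cells (SD, n = 2).

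The primary microglia libraries held a broad matrix repertoire that the BV2 libraries mostly lacked. Summed over the 65 genes, the level in primary cells without LPS was 1398, 1741 and 1079 CPM, and with LPS it was 1240, 854 and 891 CPM. The BV2 libraries held 67.2 and 71.2 CPM without LPS and 80.02 and 69.1 CPM with LPS. All 6 primary libraries lay far above all 4 BV2 libraries, whereas the primary groups overlapped. In bulk RNA, fewer cells of a type and less RNA per cell cannot be told apart. Of all matrix counts in primary cells, 25.2% fell on glycoproteins, 20.2% on collagen IV, 15.5% on fibrillar collagens, 10.9% on proteoglycans and 10.4% on laminin chains. In BV2 cells 50.4% fell on laminin chains and 23.8% on collagen IV, and the glycoproteins had 0 counts.

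**Figure D1:**
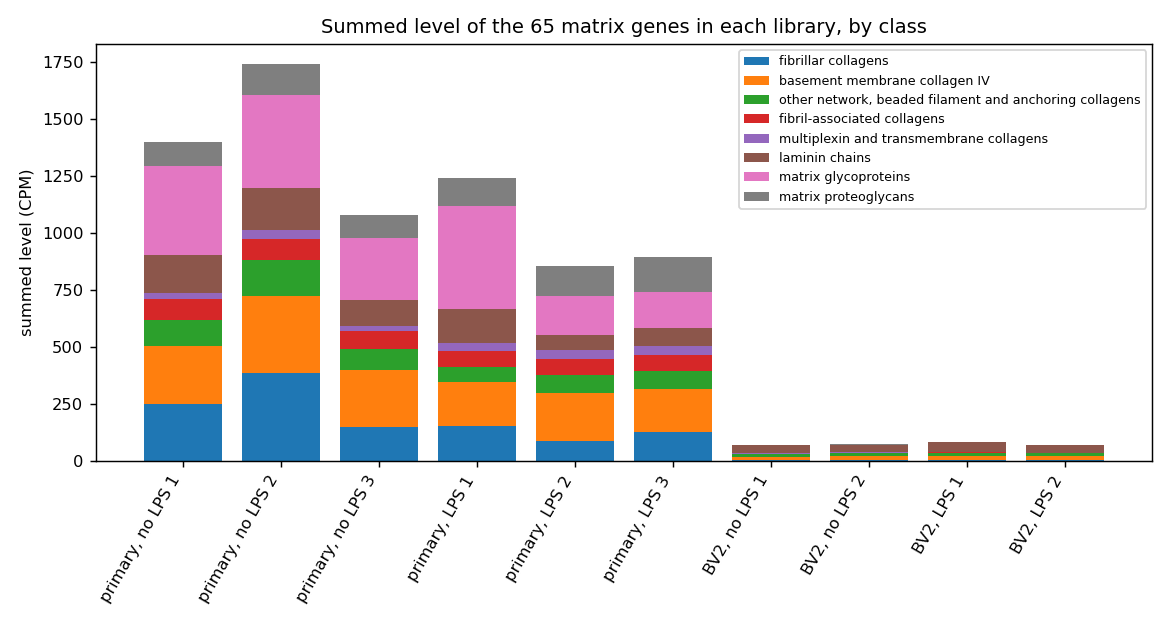
Summed level of the 65 matrix genes in each of the 10 libraries (y axis, CPM), stacked by class of protein. The primary libraries without LPS reach 1079 to 1741 CPM and those with LPS 854 to 1240 CPM, while the 4 BV2 libraries stay between 67.2 and 80.02 CPM.

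Per kilobase of transcript, Fn1, which encodes fibronectin, had the highest level in primary cells without LPS, at 36.2 ± 7.66 CPM per kb (SD, n = 3). Next stood Col3a1, the chain of collagen III, at 17.6 ± 12.5 CPM per kb, with an SD that spans the genes that follow it. The collagen IV chains Col4a1, Col4a5 and Col4a2 had 12.2 ± 2.35, 11.8 ± 1.86 and 10.8 ± 2.55 CPM per kb, which did not differ beyond their spread. Col4a6 (8.22 ± 1.11), the laminin chain Lamc1 (7.97 ± 2.12), the small proteoglycans Dcn (7.91 ± 4.86) and Bgn (7.89 ± 2.68), Col6a1 (7.58 ± 2.96) and the large proteoglycan Vcan (6.32 ± 0.54 CPM per kb) followed. The SD ranges of neighbours in this order overlapped, while those of Col4a6 and Vcan, at its ends, did not.

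The collagen IV genes lie in head-to-head pairs, and their start regions are printed because Col4a1 and Col4a2 fell together in primary cells, while BV2 cells had reads of Col4a5 and 0 counts of Col4a6. The windows run from 250 bases before to 50 bases after each start site and come from RefSeq on GRCm38.p6, where 47 of the 65 genes had one. Col4a1 (minus strand, chr8:11312777-11313076) and Col4a2 (plus strand, chr8:11312555-11312854) start 21 bases apart, and capitals mark the 78 bases that the windows share, read from opposite strands.
Col4a1: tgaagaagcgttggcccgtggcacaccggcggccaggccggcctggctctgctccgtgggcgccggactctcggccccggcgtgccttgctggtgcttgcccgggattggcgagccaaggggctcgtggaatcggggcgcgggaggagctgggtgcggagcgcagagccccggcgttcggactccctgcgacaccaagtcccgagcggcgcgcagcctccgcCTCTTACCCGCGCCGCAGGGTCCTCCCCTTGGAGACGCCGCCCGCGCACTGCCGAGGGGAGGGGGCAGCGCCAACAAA
Col4a2: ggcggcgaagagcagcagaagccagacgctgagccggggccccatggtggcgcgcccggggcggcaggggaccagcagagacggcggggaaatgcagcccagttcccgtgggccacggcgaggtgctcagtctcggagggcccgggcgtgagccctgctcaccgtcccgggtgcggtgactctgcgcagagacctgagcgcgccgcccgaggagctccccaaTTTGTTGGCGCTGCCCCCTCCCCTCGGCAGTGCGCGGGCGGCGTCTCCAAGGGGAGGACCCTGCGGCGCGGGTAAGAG
Col4a5 (plus strand, chrX:141475169-141475468) and Col4a6 (minus strand, chrX:141474027-141474326) start 1343 bases apart, and their windows share 0 bases. Capitals here mark the letters of a GC box (GGGCGG) or a CCAAT box (CCAAT), searched on both strands.
Col4a5: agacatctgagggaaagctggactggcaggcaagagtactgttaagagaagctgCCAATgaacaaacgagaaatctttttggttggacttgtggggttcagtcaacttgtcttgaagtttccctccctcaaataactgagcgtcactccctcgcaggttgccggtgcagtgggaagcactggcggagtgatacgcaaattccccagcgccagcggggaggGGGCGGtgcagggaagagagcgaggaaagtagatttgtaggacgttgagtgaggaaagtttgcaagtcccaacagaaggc
Col4a6: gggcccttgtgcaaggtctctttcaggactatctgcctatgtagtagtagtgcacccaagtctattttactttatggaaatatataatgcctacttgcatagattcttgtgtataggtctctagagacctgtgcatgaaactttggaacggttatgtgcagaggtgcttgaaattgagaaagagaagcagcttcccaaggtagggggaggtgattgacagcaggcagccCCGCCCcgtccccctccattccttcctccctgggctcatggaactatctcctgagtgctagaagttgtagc
The Col4a1 and Col4a2 windows held 1 and 3 GC boxes and 1 CCAAT box each, which the capitals do not mark. Col4a5 held 1 of each and Col4a6 held 1 GC box, and none of the 4 held a TATA box (TATAAA), with 0 matches each. Matches of different motifs can overlap, and a match is only a match of letters. Of 32851 windows of this length, 35.7% held a GC box, 37.4% a CCAAT box and 13.6% a TATA box. Among the 47 matrix genes with a window, 30 held a GC box, 16 a CCAAT box and 5 a TATA box.

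In primary microglia, chains of several matrix families fell with LPS and a few genes rose. By edgeR's quasi-likelihood test with Benjamini-Hochberg adjustment over all 10664 genes tested, 15 matrix genes fell and 3 rose at an adjusted p under 0.05, and 21 were not called, of 39 that passed the filter on low counts. That is 46.2% of those tested, against 39.2% of all genes tested. Falls took 38.5% of the tested matrix genes against 17.8% of all tested, and rises 7.69% against 21.4%. The median log2 fold change was -0.60, beside -0.03 over all genes tested. For 15 of the 39 (38.5%) the 2 groups did not overlap, beside 49% of all genes tested. The filter keeps a gene that is high in only 1 group, so the counts describe the tested genes, not all 65. With no filter, 17 fell and 4 rose among the 63 with a read. The falls were 1.51-fold to 7.36-fold, and DESeq2 called 13 of the 15. Of the 15, 9 were called whichever single library was left out: Bgn, Col4a1, Col4a6, Col5a1, Col5a2, Col7a1, Col8a1, Lama3 and Lamb2.

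**Figure D2:**
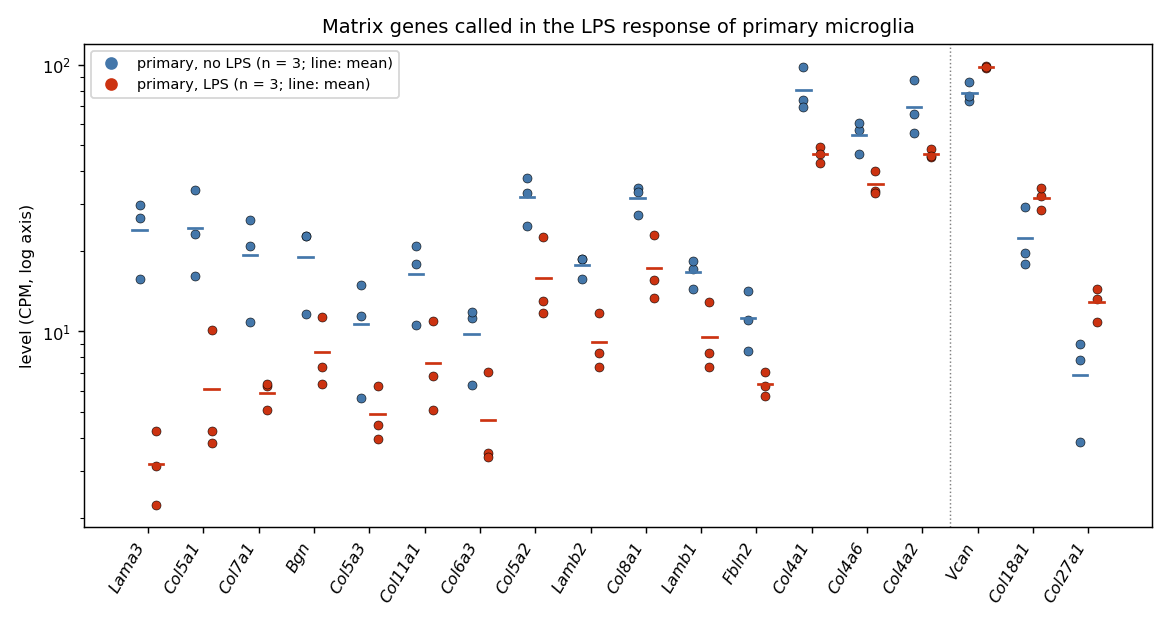
Level of the 18 matrix genes that passed the test for LPS in primary microglia (y axis, CPM, log scale), with 1 point per library and lines at the means of 3 libraries. The 15 genes left of the dotted line fell, led by Lama3, and Vcan, Col18a1 and Col27a1 on the right rose.

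Laminins are cross-shaped trimers of an alpha, a beta and a gamma chain. Lama3, the alpha chain of the laminin of epithelial anchoring sites, showed the largest fall of any matrix gene called. It had 71, 73 and 45 counts in the libraries without LPS, or 26.5, 29.8 and 15.8 CPM, and 8, 7 and 15 counts with LPS, or 3.13, 2.23 and 4.24 CPM. Every LPS library lay below every library without LPS, and the difference was -2.88 ± 0.31 log2 (SE), a 7.36-fold lower level with an adjusted p of 4.07e-07. The beta chains fell by less. Lamb2 stood at 18.7, 18.8 and 15.8 CPM without LPS and 11.7, 8.27 and 7.35 CPM with LPS (-0.99 ± 0.24 log2, SE, adjusted p = 0.00245). Lamb1 stood at 17.2, 18.4 and 14.4 CPM without LPS and 12.9, 8.27 and 7.35 CPM with LPS, a difference of -0.84 ± 0.25 log2 (SE, adjusted p = 0.0112) that was not called without no-LPS library 2 or LPS library 3, up to an adjusted p of 0.0775. For both beta chains the groups did not overlap.

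The other laminin chains tested were not called. Lama5, an alpha chain of vascular and other basement membranes, had a log2 change of -0.40 ± 0.31 (SE, adjusted p = 0.350), and Lama4, the alpha chain typical of vessel walls, one of -0.02 ± 0.31 (adjusted p = 0.961). Lamc1, the gamma chain of most laminins, is described with Fn1 below. Lama1, Lama2, Lamb3 and Lamc3 had 4 to 18 counts each over all 10 libraries and were not tested. Of the 11 laminin chains 6 were tested, of which 3 fell (50%, beside 17.8% of all genes tested) and 0 rose (beside 21.4%).

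Collagen IV is the network-forming collagen of basement membranes. Of its 6 chains, Col4a3 had 3 counts in all libraries, Col4a4 had 0, and the other 4 were tested. Col4a1 went from 74.0, 98.4 and 69.5 CPM without LPS to 49.2, 46.1 and 43.0 CPM with LPS (-0.82 ± 0.15 log2, SE, adjusted p = 1.82e-04). Its partner Col4a2 went from 55.7, 87.8 and 65.6 to 44.9, 48.4 and 45.5 CPM (-0.60 ± 0.16 log2, adjusted p = 0.00496). Col4a6 went from 57.2, 60.4 and 46.3 to 33.6, 40.1 and 33.1 CPM (-0.63 ± 0.15 log2, adjusted p = 0.00266). In these 3 genes all LPS libraries lay below all libraries without LPS. The Col4a2 call depended on no-LPS library 2, without which the adjusted p was 0.0664. Col4a5, which shares a trimer with Col4a6, had 71.4, 91.0 and 68.8 CPM without LPS and 64.1, 76.1 and 69.3 CPM with LPS, overlapping values with a difference of -0.15 ± 0.14 log2 (SE, adjusted p = 0.414). The partners Col4a6 and Col4a5 thus gave -0.63 and -0.15, a difference between genes that was not tested.

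Among fibrillar collagens, 4 of the collagen V and XI chains fell. Col5a1, a chain of the collagen V that starts fibrils, went from 23.2, 33.9 and 16.1 CPM to 10.2, 3.82 and 4.24 CPM with LPS, a 4.17-fold lower level without overlap (-2.06 ± 0.39 log2, SE, adjusted p = 0.00163). Col5a2 went from 37.7, 33.1 and 24.9 to 22.7, 11.8 and 13.01 CPM (-1.05 ± 0.24 log2, adjusted p = 0.00254), again without overlap. Col11a1, which belongs to the same fibril-starting class, went from 20.9, 17.96 and 10.5 to 10.9, 5.09 and 6.79 CPM, and here LPS library 1 lay just above no-LPS library 3 (-1.15 ± 0.31 log2, adjusted p = 0.00727, and 0.0561 without no-LPS library 1). Col5a3 changed by -1.15 ± 0.35 log2 (adjusted p = 0.0143), with overlap, and it was not called without no-LPS library 1 or 2 or LPS library 2 or 3, up to an adjusted p of 0.1301. Col27a1, a fibrillar chain of cartilage, rose from 7.85, 8.98 and 3.86 to 13.3, 10.8 and 14.4 CPM (0.90 ± 0.29 log2, adjusted p = 0.0185), and its call was lost without no-LPS library 3 or LPS library 3, up to an adjusted p of 0.116. Col11a2, the other collagen XI chain tested, had 4.70 ± 1.24 CPM without and 5.60 ± 0.73 CPM with LPS (SD, n = 3) and was not called (adjusted p = 0.599). Of the 9 fibrillar collagens tested, 4 fell (44.4%, beside 17.8% of all genes tested), 1 rose (11.1%, beside 21.4%) and 4 were not called.

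The major fibroblast collagens I and III varied widely between libraries and were not called in the main fit. Col1a1 had 35.5, 49.8 and 18.6 CPM without LPS and 21.5, 2.55 and 7.35 CPM with LPS (-1.80 ± 0.78 log2, SE, adjusted p = 0.148), and only LPS library 1 overlapped the other group. Without LPS library 1 the difference was -2.75 log2 (adjusted p = 0.0295). It was -0.96 log2 within the first set of libraries and -1.88 log2 within the second. With a term for the 2 sets Col1a1 was called (-1.33 log2, adjusted p = 2.25e-04 by edgeR's quasi-likelihood test). The sets were drawn from these data, so that call is no separate support. Col1a2, the other chain of collagen I, changed by -1.08 ± 0.50 log2 (adjusted p = 0.145). Col3a1 had 76.6, 176 and 41.8 CPM without LPS and 37.9, 33.1 and 56.3 CPM with LPS (-1.20 ± 0.64 log2, adjusted p = 0.223). Its no-LPS library 2 was the highest by far and the other values overlapped. Within the sets the Col3a1 difference was -1.70 and 0.10 log2.

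**Figure D3:**
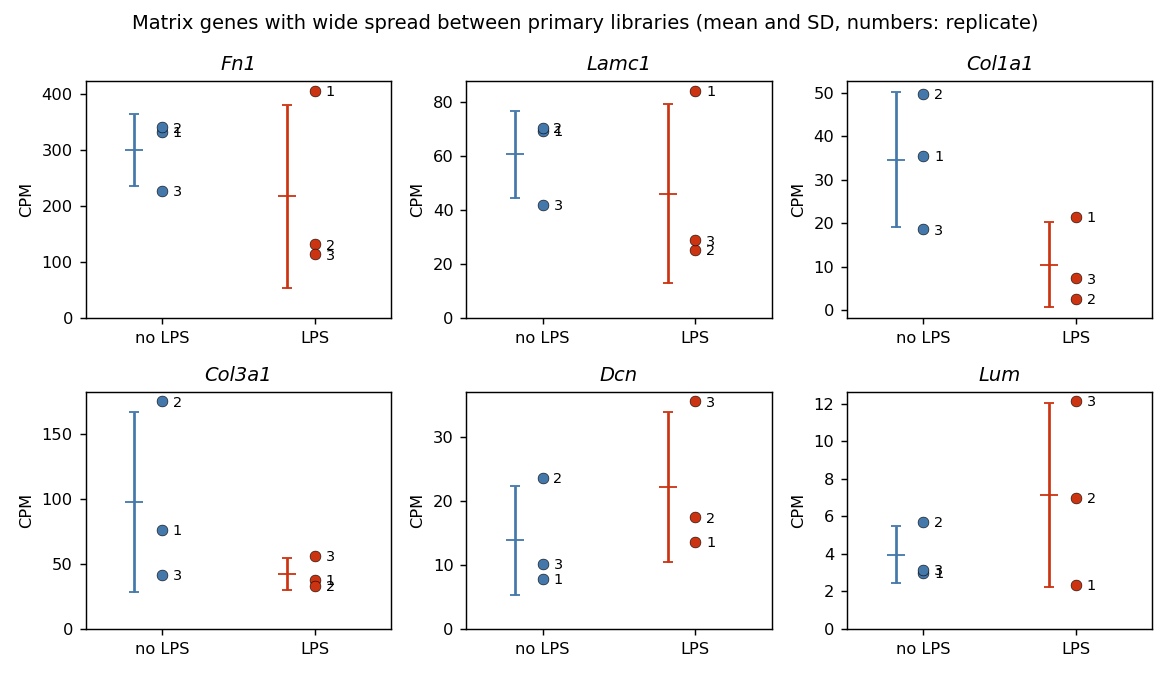
Level (y axis, CPM) of 6 matrix genes in the 3 primary libraries without LPS and the 3 with LPS, with the replicate number beside each point and the mean ± SD at its left. LPS library 1 is the highest library of all for Fn1 (406 CPM) and Lamc1 (84.4 CPM), and no-LPS library 2 is the highest for Col3a1 (176 CPM).

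Other network and anchoring collagens also fell. Col7a1, which forms anchoring fibrils, went from 20.9, 26.1 and 10.9 CPM to 6.25, 6.36 and 5.09 CPM with LPS, a 3.27-fold lower level without overlap (-1.71 ± 0.31 log2, SE, adjusted p = 2.50e-04). Col8a1, a short-chain network collagen, went from 34.4, 33.5 and 27.4 to 15.6, 13.4 and 22.9 CPM, also without overlap (-0.87 ± 0.21 log2, adjusted p = 0.00238). Col6a3, a beaded filament chain, changed by -1.12 ± 0.34 log2 (adjusted p = 0.0145), with overlap, and it was not called without no-LPS library 1 or 2 or LPS library 2 or 3, up to an adjusted p of 0.0890, nor by DESeq2 (adjusted p = 0.0535). Its trimer partners Col6a1 (-0.43 ± 0.24 log2, adjusted p = 0.191) and Col6a2 (-0.47 ± 0.30 log2, adjusted p = 0.252) were not called, although Col6a1 was without no-LPS library 3 (-0.67 log2, adjusted p = 0.0238). Its differences within the 2 sets had opposite signs, at -0.85 and 0.29 log2. Of 5 such genes tested, 3 fell (60%, beside 17.8% of all genes tested). Col12a1, a fibril-associated collagen, had 43.7 ± 3.37 CPM without and 40.4 ± 4.65 CPM with LPS (SD, n = 3). Of the 4 fibril-associated collagens tested, 0 were called by edgeR's quasi-likelihood test, beside 39.2% of all genes tested. DESeq2 also called 0 of them, and 1 had an unadjusted p under 0.05 by edgeR.

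Col18a1, the basement membrane multiplexin that yields endostatin, rose from 17.9, 29.4 and 19.7 to 28.5, 32.1 and 34.5 CPM (0.51 ± 0.19 log2, SE, adjusted p = 0.0451). No-LPS library 2 lay above LPS library 1, and the call was lost without no-LPS library 1 or 3 or LPS library 2 or 3, up to an adjusted p of 0.208. Vcan, the large chondroitin sulfate proteoglycan versican, was the other abundant gene to rise. It stood at 73.2, 86.1 and 76.2 CPM without LPS and 97.3, 99.0 and 98.1 CPM with LPS, a narrow difference without overlap (0.31 ± 0.12 log2, adjusted p = 0.0466) whose call was lost without any 1 of the same 4 libraries, up to an adjusted p of 0.180. Of the 3 rises 0 were called by DESeq2, 0 remained without no-LPS library 3 or LPS library 3, and 1 without no-LPS library 1 or LPS library 2.

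The small leucine-rich proteoglycans bind collagen fibrils. Bgn, biglycan, fell from 22.8, 22.9 and 11.6 to 11.3, 6.36 and 7.35 CPM, where the lowest library without LPS lay just above the highest with LPS (-1.22 ± 0.29 log2, SE, adjusted p = 0.00337). Dcn, decorin, had 7.85, 23.7 and 10.2 CPM without LPS and 13.7, 17.5 and 35.6 CPM with LPS (0.72 ± 0.55 log2, adjusted p = 0.370). Lum, lumican, had 2.99, 5.71 and 3.16 CPM without LPS and 2.34, 7.001 and 12.2 CPM with LPS (0.93 ± 0.52 log2, adjusted p = 0.191). Both overlapped between groups. Within the first set of libraries the differences were -0.16 log2 for Dcn and -0.85 log2 for Lum, and within the second they were 1.39 and 1.60 log2, of the opposite sign. Lum was also called up without LPS library 1 (1.30 log2, adjusted p = 5.67e-04) and with no filter (adjusted p = 0.0262).

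Fn1 and Lamc1, the most abundant glycoprotein and laminin chain, were set apart by 1 library. Fn1 had 333, 342 and 227 CPM without LPS and 406, 132 and 115 CPM with LPS, from 405 to 1040 counts a library. LPS library 1 was the highest of all and LPS libraries 2 and 3 the lowest, so that the difference was -0.49 ± 0.60 log2 (SE, adjusted p = 0.586). Without LPS library 1 it was -1.29 log2 (adjusted p = 2.01e-20). In that fit all LPS libraries are of the second set, so that LPS and set are partly confounded. Within the first set the Fn1 difference was 0.29 log2 and within the second -0.89 log2, of opposite signs. Lamc1 had 69.5, 70.6 and 42.1 CPM without LPS and 84.4, 25.5 and 28.8 CPM with LPS, again with LPS library 1 highest and LPS libraries 2 and 3 lowest (-0.43 ± 0.58 log2, adjusted p = 0.613). It was called without LPS library 1 (-1.16 log2, adjusted p = 2.50e-11), and its differences within the sets were 0.29 and -0.64 log2. Lama5 was called without that library as well (-0.75 log2, adjusted p = 0.00208). LPS library 1 had 43.7% of its gene counts on Rn45s against 15.7% and 16.0% in the other LPS libraries, and the part of this in the Fn1 and Lamc1 values was not tested.

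Of the remaining glycoproteins of elastic and fibrous matrix, 1 was called. Fbln2, fibulin 2, went from 14.2, 11.0 and 8.42 to 7.03, 5.73 and 6.22 CPM with LPS without overlap (-0.84 ± 0.28 log2, SE, adjusted p = 0.0214), and it was not called without no-LPS library 1 or 2 or LPS library 2 or 3, up to an adjusted p of 0.149, nor by DESeq2 (adjusted p = 0.0983) or with a term for the library sets (adjusted p = 0.0521). Fbn1, the microfibril protein fibrillin 1, had 33.0 ± 4.17 CPM without and 27.5 ± 1.30 CPM with LPS (SD, n = 3), and was not called (adjusted p = 0.198). Fbln1 (-0.43 ± 0.52 log2, adjusted p = 0.553) and Postn (-0.19 ± 0.43 log2, adjusted p = 0.767) were not called, and Fbln5 had 16 counts in all and was not tested. Of the 5 glycoproteins tested, 1 fell (20%, near the 17.8% of all genes tested) and 0 rose (beside 21.4%).

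The falls could be set beside markers of the cells that may share such a culture. Of 20 genes typical of fibroblasts and meningeal cells, none of them among the 65 matrix genes, Tcf21 was at 0 in all primary libraries. Their summed level was 111, 182 and 116 CPM without LPS and 142, 158 and 196 CPM with LPS. The groups overlapped, with the highest sum in LPS library 3. Of the 9 tested, 7 had a fitted change below 0 and 2 above, with a median of -0.20 log2, beside -0.03 over all genes tested. Only 1 of the 9 was called (11.1%, beside 39.2% of all genes tested). It was Prrx1, a transcription factor of mesenchyme, which rose from 31.3 ± 1.81 to 77.3 ± 12.1 CPM (SD, n = 3), by 1.30 log2 (adjusted p = 8.22e-07 by edgeR's quasi-likelihood test). The summed level, Prrx1 included, had a mean of 136 ± 39.4 CPM without and 165 ± 27.8 CPM with LPS (SD, n = 3). Its higher mean with LPS thus holds the rise of Prrx1, while most of the tested markers had changes below 0. Igf2, a growth factor of meningeal cells, was picked from the list after its values were seen. It had 32.9, 67.8 and 32.3 CPM without LPS and 27.7, 32.8 and 53.7 CPM with LPS.

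The 16 astrocyte markers summed to 1088, 1581 and 959 CPM without LPS and 954, 1618 and 1225 CPM with LPS. Gfap, the astrocyte filament gene, led them with 538 to 964 CPM without and 478 to 1041 CPM with LPS. Of the 13 astrocyte markers tested 4 fell, Fgfr3, Gja1, Id4 and Sox9 (30.8%, beside 17.8% of all genes tested), and Aqp4, the water channel of astrocytes, rose. The 10 mural cell markers, led by Tagln, a smooth muscle gene, summed to 180 to 225 CPM without and 153 to 218 CPM with LPS, with Rgs5 at 0 in all primary libraries. The 15 endothelial markers summed to only 22.8 to 31.0 and 20.05 to 28.1 CPM, with Emcn and Tie1 at 0. The 12 microglial and macrophage markers summed to 2874 to 3081 CPM without and 2844 to 2907 CPM with LPS. Of these 12, 5 fell (41.7%, beside 17.8% of all genes tested) and 2 rose (16.7%, beside 21.4%). Csf1r, the receptor for a growth factor of microglia, fell from 314 ± 51.1 to 121 ± 52.1 CPM (SD, n = 3). The primary libraries held RNA of astrocyte, fibroblast and mural genes beside that of microglia, and the part of each cell type in the matrix values was not tested.

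**Figure D4:**
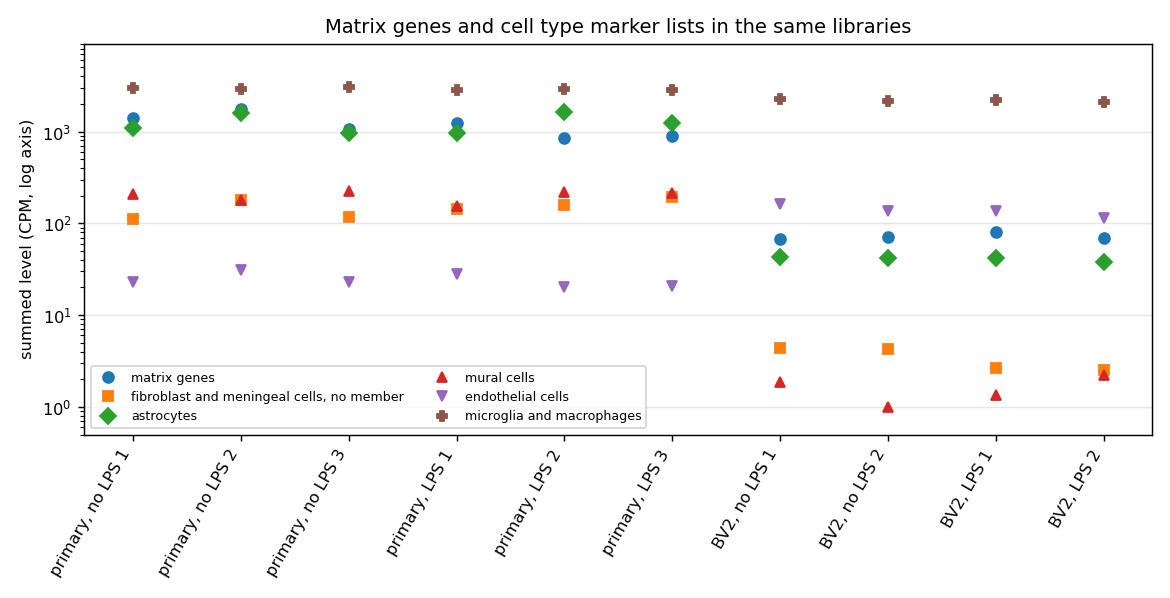
Summed level (y axis, CPM, log scale) of the matrix genes and of 5 cell type marker lists in each library. In primary libraries the matrix sum is 1079 to 1741 CPM without LPS and 854 to 1240 CPM with LPS, while the fibroblast and meningeal sum is 111 to 182 CPM and 142 to 196 CPM.

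Among 30 genes of collagen processing and crosslinking, 22 were tested for LPS in primary cells, and 5 rose (22.7%) and 1 fell (4.55%). The share that rose was near the 21.4% of all genes tested, and 17.8% of all fell. The prolyl hydroxylase P4ha1, which stabilises the collagen helix, rose from 67.8 ± 7.47 to 174 ± 9.95 CPM (SD, n = 3; 1.34 ± 0.12 log2, SE, adjusted p = 3.64e-08). P4ha2 (1.06 log2, adjusted p = 0.0386), the lysyl hydroxylase and glycosyltransferase Plod3 (0.53 log2, adjusted p = 0.00210), the crosslinking oxidase Lox (0.38 log2, adjusted p = 0.0432) and the folding enzyme Ppib (0.35 log2, adjusted p = 0.0270) rose as well. Colgalt1, which adds galactose to collagen, fell by 0.51 log2 (adjusted p = 0.00217). The median change of the 22 was -0.01 log2.

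Of 41 other matrix proteins 22 were tested, of which 2 rose (9.09%) and 3 fell (13.6%), both below the 21.4% and 17.8% of all genes tested. Agrn, agrin of basement membranes (1.16 log2, adjusted p = 0.0318), and Thbs2, a thrombospondin (0.71 log2, adjusted p = 0.00528), rose. Nid1, nidogen, which links laminin to collagen IV (-1.13 log2, adjusted p = 0.0374), Emilin2 (-0.67 log2, adjusted p = 0.0460) and Sparc, a collagen-binding glycoprotein (-0.47 log2, adjusted p = 0.0184), fell.

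Receptors for these proteins included large rises. Of 28 listed 20 were tested, and 7 rose (35%, beside 21.4% of all genes tested) and 3 fell (15%, beside 17.8%). Sdc4, a syndecan that binds fibronectin, rose from 141 ± 9.57 to 2395 ± 225 CPM (SD, n = 3; 4.08 ± 0.12 log2, SE, adjusted p = 2.20e-15). Itga5, the alpha chain of the fibronectin receptor, rose from 116 ± 2.35 to 696 ± 76.1 CPM (2.58 ± 0.12 log2, adjusted p = 1.11e-12). Cd44, which binds hyaluronan and matrix (1.67 log2, adjusted p = 1.92e-10), Sdc3 (1.30 log2, adjusted p = 1.38e-08) and Itgav (1.25 log2, adjusted p = 1.32e-05) followed, and Sdc1 and Itgb1 rose by less. Itgb5 (-1.70 log2, adjusted p = 6.40e-10), the laminin receptor chain Itga6 (-0.81 log2, adjusted p = 2.77e-05) and dystroglycan, Dag1 (-0.40 log2, adjusted p = 0.0107), fell.

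BV2 cells used few matrix genes. Of the 65, 45 had 0 counts in all 4 BV2 libraries, Fn1, Col1a1, Col1a2, Col3a1, Dcn, Lum and Bgn among them. Lamc1 was the most abundant, at 32.7 and 32.0 CPM without LPS and 34.5 and 31.2 CPM with LPS. Col4a5 had 14.9 and 15.8 CPM without LPS and 13.7 and 14.3 CPM with LPS, and Col7a1 had 14.3 and 15.8 and then 16.1 and 12.4 CPM. These 3 genes held about the same level in every BV2 library. Col4a2 had a mean of 2.20 CPM over the 4 libraries, and Col15a1, a multiplexin of basement membranes, one of 0.95 CPM.

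In the LPS response of BV2 cells 4 matrix genes passed the filter, and edgeR's quasi-likelihood test called 0 of them, beside 5.2% of the 9321 genes tested (3.69% up and 1.51% down). At an unadjusted p under 0.05 there was 1, and DESeq2 called 0. Among them the differences were -0.09 ± 0.23 log2 for Col4a5 (SE, adjusted p = 0.924), -0.06 ± 0.25 for Col7a1 (adjusted p = 0.964) and 0.05 ± 0.18 for Lamc1 (adjusted p = 0.949). Col4a2 had 1 and 4 counts without LPS and 13 and 10 with LPS, or 0.31 and 1.32 and then 4.35 and 2.81 CPM. It did not pass the filter, and it was the 1 matrix gene called up with no filter. Its partner Col4a1, with which it shares the start region printed above, had 1 and 0 counts without LPS and 0 and 1 with LPS. Of the receptors 2 rose, Sdc4 (2.68 log2, adjusted p = 4.17e-08) and Itga5 (2.14 log2, adjusted p = 1.16e-05), and Itga6 fell by 0.56 log2 (adjusted p = 0.0300), of 12 tested. Among 11 genes of collagen processing and crosslinking and 3 other matrix proteins tested 0 were called by edgeR, with 1 in each list at an unadjusted p under 0.05.

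Without LPS, the matrix genes that passed the filter were mostly higher in primary microglia than in BV2 cells. Of 40 tested by edgeR's quasi-likelihood test in a fit of all 10 libraries, 37 were higher, 0 were lower and 3 were not called, or 92.5% higher beside 41.5% of the 11626 genes tested. Of the 40, 25 had 0 counts in all 4 BV2 libraries and 10 had 1 to 9 there, so that most passed the filter only through the primary libraries and had to differ, and the count is a description. All 40 fitted differences were above 0. DESeq2 called 37 higher and 0 lower among the same filtered genes, so the same limit holds for its count. Lower levels were called for 32.5% of all genes tested, and 74.1% were called in either direction. For many of these genes BV2 cells had 0 counts, and folds are then lower bounds against 3 counts over the BV2 group. Fn1 was at least 621-fold higher, Col3a1 at least 197-fold, Col4a6 at least 113-fold, Col12a1 at least 90.9-fold, Col1a1 at least 70.5-fold and Fbn1 at least 68.4-fold higher. No p-value is given for them, since with 0 BV2 counts they passed the filter only through the primary libraries. The median log2 difference of the 40 was 8.49 as fitted and 5.41 with such genes at their bound.

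Where BV2 cells had reads, the size of the difference depended on how many. Vcan was at 78.5 ± 6.75 CPM in primary cells (SD, n = 3) and 1.14 ± 1.18 CPM in BV2 cells (SD, n = 2), or 6.08 ± 0.31 log2 higher (SE). Col4a2 differed by 6.37 ± 0.36 log2 (SE). Neither gene passed the filter in the fit of BV2 cells alone, and no p-value is given for them. Vcan had 7 and Col4a2 had 5 BV2 counts, and the differences were 5.26 and 5.66 log2 without BV2 no-LPS library 1 and 7.79 and 7.61 log2 without BV2 no-LPS library 2. Col4a1 rested on 1 BV2 count, with a ratio of 499 and a 95% counting interval of 89.3 to 19742. Col4a5 differed by 2.32 ± 0.19 log2, from 77.1 ± 12.2 to 15.4 ± 0.63 CPM (adjusted p = 1.60e-11), while Col4a6 had 433 counts in primary cells and 0 in BV2 cells. Without LPS, Col4a1 and Col4a2 had 1 and 5 counts in BV2 cells, both near the detection limit. Among the 3 genes not called were Lamc1 (0.90 ± 0.56 log2, adjusted p = 0.187) and Col7a1 (0.34 ± 0.28 log2, adjusted p = 0.271). Lamc1 was called without LPS library 1 of the primary cells (adjusted p = 7.89e-06) and Col7a1 without no-LPS library 3 (adjusted p = 0.0202). Fibroblast and meningeal markers summed to 4.29 to 4.36 CPM in BV2 cells without LPS, with 16 of the 20 at 0 in all BV2 libraries, and Gfap was at 0. Cell type, culture and the other cells of a primary culture cannot be told apart in this comparison.

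**Figure D5:**
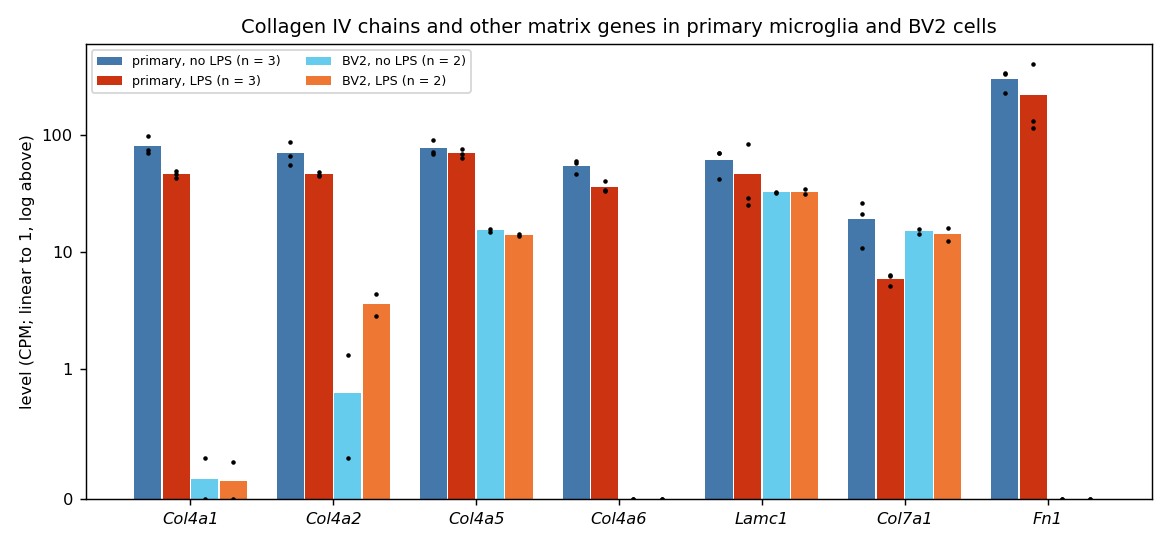
Mean level of 7 matrix genes in the 4 groups (bars, with 1 dot per library; y axis in CPM, linear up to 1 and log above). Col4a5, Lamc1 and Col7a1 are present in every group, whereas Col4a6 and Fn1 are at 0 in all 4 BV2 libraries and Col4a1 is at 1 count or 0.

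Whether LPS acted differently in the 2 cell sources could be tested for few matrix genes. Of 40 in the fit, 25 had 0 counts in all 4 BV2 libraries, which leaves their BV2 response without an estimate, 10 had 1 to 9 counts and 5 had 10 or more. The difference of the responses was called for 2 of the 40 (5%), beside 12.2% of all genes tested. Col4a2 fell with LPS in primary cells and had more counts with LPS in BV2 cells, and the responses differed by -2.67 ± 0.63 log2 (SE). It had 5 BV2 counts without LPS and did not pass the filter in the fit of BV2 cells alone. Since Col4a2 entered this fit through the primary libraries, no p-value is given for it. Col7a1 fell in primary cells, from 151 to 54 counts over the group, and had 94 and 92 counts in the BV2 groups, a difference of the responses of -1.61 ± 0.43 log2 (adjusted p = 0.0105). Without BV2 library 1 of the cells that had no LPS, neither gene was called (-1.97 log2 for Col4a2 and -1.53 log2 for Col7a1). Without BV2 LPS library 1, Col7a1 was not called (-1.41 log2). Among the other genes with 10 or more BV2 counts, Col4a5 (-0.01 ± 0.28 log2, adjusted p = 1.00) and Lamc1 (-0.44 ± 0.79 log2, adjusted p = 0.890) were not called, although Lamc1 was without LPS library 1 of the primary cells (-1.27 log2, adjusted p = 5.59e-04).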

How the data were processed

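RNA was sequenced in 10 libraries after removal of ribosomal RNA with a strand-keeping kit, per the labels' protocols. Per the submitters' processing notes the authors used CASAVA 1.8.2, Trimmomatic 0.33, STAR 2.5.1 on mm10, and DESeq2, while the gene annotation was not given in the sources used here. Deposited values are raw read counts per gene, and the sense-strand counts in column 4 were used. Rows that name no gene stayed out of library sizes; they hold unmapped, multimapping and ambiguous reads and those on no gene, together 70.4% to 79.5% of each column's total.

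Counts were tested with edgeR 4.0.16 (limma 3.58.1, R 4.3.3): TMM scaling, filterByExpr (minimum count 10, total 15), a robust quasi-likelihood fit and Benjamini-Hochberg adjustment over all genes tested, with calls at an adjusted p under 0.05. LPS responses used the libraries of 1 cell source, and the other comparisons all 10. DESeq2 1.42.0, other scaling, filters, strand columns, a replicate block, leaving out each library and, chosen after seeing the data, the 2 sets of primary libraries were alternatives. Where neither fit called a gene, a change of sign was not counted as a change. The script was tested on simulated counts. Every pair of libraries within a group exceeded sampling noise, with a chi-square per degree of freedom of at least 1.52, and none was counted as a duplicate. With Rn45s among the genes, it was 61.1 and 66.1 for primary LPS library 1 against LPS libraries 2 and 3. It was at most 8.76 for every other pair. Transcript lengths are those of the longest protein-coding transcript in GENCODE M21. Precision is limited by the counts given for each gene. The named genes are all those called for LPS or its difference, the 15 highest in primary and 6 highest in BV2 cells, the 6 largest called differences between cells at 5 CPM or more, all laminin, collagen IV, glycoprotein and proteoglycan genes with a read, and up to 5 called genes per direction of each pathway list. Col1a2, Col6a2, the sums and Igf2 are given beside them, and were chosen after their values were seen. The genes and lists were chosen with earlier results of these data known. The values of 1 gene are not reported here.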

Additional observations from a re-analysis of the deposited data

Results flagged for a closer look

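The LPS responses of the 2 cell sources differed by the test of the difference itself for 2 of 40 matrix genes (5%, beside 12.2% of all genes tested). Of the 40, 25 had 0 counts in all 4 BV2 libraries and 10 had 1 to 9. Few of them could show a difference, so that the 2 shares cannot be compared. Col4a2, a collagen IV chain, differed by -2.67 log2 (primary minus BV2): it went from 69.7 ± 16.4 to 46.3 ± 1.84 CPM in primary cells (SD, n = 3) and from 0.81 ± 0.71 to 3.58 ± 1.09 CPM in BV2 cells (SD, n = 2). Col4a2 did not pass the filter in the fit of BV2 cells alone. Its difference rests on 5 BV2 counts without LPS. It was -1.97 log2 and not called without BV2 no-LPS library 1, and -3.92 log2 without BV2 no-LPS library 2. Col7a1, the anchoring fibril collagen, differed by -1.61 log2, with 19.3 ± 7.75 and 5.90 ± 0.71 CPM in primary cells and 15.1 ± 1.07 and 14.2 ± 2.62 CPM in BV2 cells. Col7a1 was not called without BV2 no-LPS library 1 (-1.53 log2) or without BV2 LPS library 1 (-1.41 log2).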

How the results depend on the processing

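The 15 falls in primary cells numbered 10 to 20 when 1 library was left out, and the 3 rises 0 to 4. The rises numbered 0 under DESeq2 and 1 in the fit of all 10 libraries. Within the first set of libraries the Fn1 difference turned to 0.29 log2. In BV2 cells 1 rise appeared with no filter and 1 in the fit of all 10 libraries. The difference of the responses gave 0 to 1 higher and 0 to 3 lower calls when 1 library was left out. Without Rn45s in the library sizes the summed levels were 2115 and 1517 CPM in primary cells without and with LPS, and 104 and 116 CPM in BV2 cells; the unstranded counts gave 73.1 CPM for BV2 cells without LPS. Within the first set alone the median log2 fold change of the matrix genes tested was -0.66, and within the second -0.35. No calls are given there, since each set leaves an arm with 1 library. With a term for the sets 16 matrix genes fell (14 of the 15). The sets were drawn from these data, so that count is no separate support. Same-numbered primary libraries had correlations of deviations of 0.19, -0.09 and 0.21, and pairing by number was not assumed, and LPS library 2 correlated best with no-LPS library 3. With the replicate number as a block, 16 fell and 3 rose in primary cells, 0 were called in BV2 cells and 2 differed between responses. In that fit 35 were higher in primary than BV2 cells, with Col1a1 and Col3a1 no longer called. The causes were not tested. In BV2 cells 216 to 246 matrix counts a library left 4 genes testable, with total gene counts within the range of the primary libraries.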
